A study of Mus musculus with 2 samples.

Results

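The genes described here are 10 macrophage genes, C1qa, C1qb, C1qc, Adgre1, Csf1r, Mrc1, Cd68, Arg1, Trem2 and Nos2. They were taken by symbol from the 19465 features that both count matrices share, and all 10 were present. The data came from orthotopic pancreatic tumors in mice, read with the Visium CytAssist assay, in which probes bound to RNA in a section are captured on barcoded spots that can each hold several cells of different types. One library was labelled KPC-shZEB1 (tumor cells with a short hairpin RNA against ZEB1) and 1 library was labelled KPC-shV (tumor cells with the control vector). The KPC line was derived from genetically engineered mice in which a Pdx-1-Cre driver acts in the pancreas. The knockdown lines were made with lentivirus, so the host cells of the tumors of both groups, macrophages included, carried no hairpin. By the text of the study, the spatial assay was run on tumors from its single-cell experiment, whose mice had received gemcitabine in both groups. The labels of these libraries give no strain, age or drug. The methods give 2 tumors per group for this assay, and it is not stated which tumor each library covers.

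C1qa, C1qb and C1qc encode the 3 chains of C1q, the recognition molecule that starts the classical complement pathway, and in most tissues macrophages are its main source. Macrophages depend on signaling through the receptor that Csf1r encodes, and resident tissue macrophages typically carry the mannose receptor (Mrc1) and the adhesion receptor F4/80 (Adgre1). Macrophages in inflamed or oxygen-poor tissue can instead express arginase (Arg1) or inducible nitric oxide synthase (Nos2), enzymes that compete for arginine, and both genes are known to respond to hypoxia. Neutrophils and some tumor cells can express Arg1 or Nos2 as well, and a spot does not tell these sources apart.

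The C1q genes lie side by side on the minus strand of chromosome 4 of GRCm38, with C1qb at 136880129 to 136886187, C1qc at 136889804 to 136893065 and C1qa at 136895917 to 136898803, a cluster of 18675 bp. Of the other genes, Mrc1 is on chromosome 2, Arg1 on chromosome 10, Cd68 and Nos2 on chromosome 11 and Adgre1 and Trem2 on chromosome 17. Since the C1q genes moved together in every set of spots described here, the promoter windows of C1qb and C1qc (RefSeq, GRCm38.p6, minus strand, 250 bases before to 50 bases after the start) are printed 5′ to 3′. Capitals mark the letters GAGGAA, the core of the motif bound by the myeloid factor PU.1, or its reverse complement.
C1qb promoter, chr4:136886151-136886450: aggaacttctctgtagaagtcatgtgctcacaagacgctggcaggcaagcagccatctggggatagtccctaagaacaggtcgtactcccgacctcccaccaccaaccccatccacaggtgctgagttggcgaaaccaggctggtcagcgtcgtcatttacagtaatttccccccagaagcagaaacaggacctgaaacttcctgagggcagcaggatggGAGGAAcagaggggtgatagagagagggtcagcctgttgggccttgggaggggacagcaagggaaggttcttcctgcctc
C1qc promoter, chr4:136892865-136893164: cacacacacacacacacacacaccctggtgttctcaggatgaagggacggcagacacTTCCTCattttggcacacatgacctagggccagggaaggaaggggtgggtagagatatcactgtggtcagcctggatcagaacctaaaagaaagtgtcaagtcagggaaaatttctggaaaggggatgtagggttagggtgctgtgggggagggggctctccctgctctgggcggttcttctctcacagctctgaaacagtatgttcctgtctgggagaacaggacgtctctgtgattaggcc
The promoter table held 5 of the 10 genes (C1qb, C1qc, Mrc1, Cd68 and Trem2). All 5 windows held GAGGAA on either strand, with 1 match each in C1qb, C1qc and Trem2, 2 in Cd68 and 3 in Mrc1, and so did 28.3% of all 32851 promoters of this length. The letters ACGTG, the core of the hypoxia response element, were in 0 of the 5 windows and in 19.6% of all promoters. A match or its absence describes these letters only.

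The matrices held 140493626 unique molecular identifiers (UMIs) in 2220 spots of the KPC-shZEB1-labelled library and 172059528 UMIs in 3552 spots of the KPC-shV-labelled library. A level is given in CPM, the UMIs of a gene per 1000000 UMIs of the same spots, and intervals are exact at the 95% level and cover counting error only. There was 1 library per group and therefore no test, and spots are not replicates. Because spots with over 20% of their UMIs from pancreatic digestive enzyme genes (acinar-rich spots) made up 34.4% and 7.69% of the spots, respectively, values are from the other 1456 and 3279 spots unless stated. The libraries shared 1718 barcodes, which the slide design sets. Zeb1 itself stood at 15.6 CPM in the KPC-shZEB1-labelled library and 12.7 CPM in the KPC-shV-labelled library, putting the log2 ratio at 0.29 (0.19 to 0.39), and at -0.20 (-0.30 to -0.11) over all spots. Among the least hypoxic spots (bins 1 and 2 of 4 by the level of hypoxia genes) its log2 ratio was -0.10 (-0.27 to 0.07) in bin 1 and 0.01 (-0.16 to 0.19) in bin 2. Among the more hypoxic spots it was 0.34 (0.11 to 0.56) in bin 3 and 0.63 (0.18 to 1.05) in bin 4. Outside acinar-rich spots the direction of the targeted gene thus went against the labels, both when these spots were pooled and in bins 3 and 4. The assay reads host cells and tumor cells together.

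The genes were read well above background. Genes not expected in pancreas or tumor (Umod, Myh6 and Sftpc) were read at 0.533 to 0.95 CPM each. The lowest of the 10 genes was Adgre1 in the KPC-shV-labelled library, at 14.3 CPM. Over spots, the summed C1q genes followed a list of 7 other macrophage genes (Aif1, Mpeg1, Ms4a7, Fcgr1, Mertk, Ctss and Cd14), with a Spearman rho of 0.88 over 1456 spots labelled KPC-shZEB1 and 0.90 over 3279 spots labelled KPC-shV. These rho values describe spots that share a section, a library and neighbors. Genes of long-lived resident macrophages were uneven. The 11 genes of that list summed to 619 CPM in the KPC-shZEB1-labelled library and 430 CPM in the KPC-shV-labelled library, most of it Gas6, a secreted ligand that other cells express too, at 412 and 228 CPM. Stab1 stood at 82.9 and 89.3 CPM. Others were close to background, with Timd4 at 1.26 and 1.11 CPM, Vsig4 at 0.762 and 0.769 CPM, Lyve1 at 1.65 and 1.59 CPM and Cd163 at 2.87 and 2.65 CPM. No resident cell type is therefore named here.

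C1q and the general macrophage genes were higher in the KPC-shZEB1-labelled library, whereas Arg1 and Nos2 were lower. The C1q genes summed to 1990.0 CPM (95% interval 1981 to 1999.5) in the KPC-shZEB1-labelled library and 1232 CPM (1227 to 1237) in the KPC-shV-labelled library, putting the log2 ratio at 0.69 (0.68 to 0.70). C1qa stood at 824 and 522 CPM, C1qb at 572 and 351 CPM and C1qc at 594 and 359 CPM, with log2 ratios of 0.66, 0.70 and 0.73. Their intervals did not overlap between the libraries. The other macrophage list rose by as much, from 1369 CPM in the KPC-shV-labelled library to 2310.3 CPM in the KPC-shZEB1-labelled library, putting the log2 ratio at 0.75 (0.75 to 0.76), and per UMI of that list the log2 ratio of C1q was -0.063. In a spot, fewer macrophages and less RNA per macrophage cannot be told apart.
Other immune cell types moved with the library too, and their part in these differences was not tested. The T cell list (6 of 6 genes over 2-fold higher, against 3.87% of all genes) stood at 186 CPM in the KPC-shZEB1-labelled library and 36.0 CPM in the KPC-shV-labelled library. The B cell list stood at 42.8 and 11.1 CPM and the dendritic cell list at 45.6 and 20.3 CPM. The neutrophil list was lower, at 137 and 324 CPM, and the fibroblast list stood at 4653 and 4196 CPM.
Adgre1 was read at 24.0 CPM (23.0 to 25.1) in the KPC-shZEB1-labelled library and 14.3 CPM (13.8 to 14.9) in the KPC-shV-labelled library, putting the log2 ratio at 0.74 (0.66 to 0.83). Csf1r was read at 222 and 157 CPM, putting the log2 ratio at 0.50 (0.47 to 0.53). Cd68, a lysosomal glycoprotein gene, was read at 204 and 151 CPM, putting the log2 ratio at 0.43 (0.40 to 0.46). With the bins of hypoxia pooled, these genes of macrophages in general thus had intervals above 0, as did the next pair by smaller margins. Mrc1 was read at 182 and 151 CPM, putting the log2 ratio at 0.27 (0.24 to 0.30). Trem2, a receptor of lipid-associated macrophages, was read at 28.7 and 24.3 CPM, putting the log2 ratio at 0.24 (0.16 to 0.31).
Arg1 was read at 157 CPM (154 to 159) in the KPC-shZEB1-labelled library and 185 CPM (183 to 187) in the KPC-shV-labelled library, putting the log2 ratio at -0.24 (-0.27 to -0.21). Nos2 was read at 36.6 CPM (35.3 to 37.9) and 42.7 CPM (41.7 to 43.7), putting the log2 ratio at -0.22 (-0.28 to -0.16). None of the 10 genes differed by over 2-fold. Among all 18890 genes with at least 100 UMIs in the comparison, 3.87% were over 2-fold higher and 1.72% over 2-fold lower in the KPC-shZEB1-labelled library. The median log2 ratio was 0.47 over the 10 genes and -0.01 over all genes.
Several of these ratios depended on which spots were counted. Over all spots, where acinar UMIs enter the total and the median gene shifted to -0.48, the log2 ratio of C1q was 0.10 and those of Csf1r, Cd68, Mrc1 and Trem2 were -0.10, -0.15, -0.20 and -0.37. Those of Arg1 and Nos2 were -0.87 (-0.90 to -0.84) and -0.85 (-0.91 to -0.79), and per UMI of the other macrophage list, outside acinar-rich spots, -0.997 and -0.98. With every spot weighted equally, those of Mrc1 and Trem2 were -0.14 and -0.24, and that of C1q was 0.49.

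**Figure D1:**
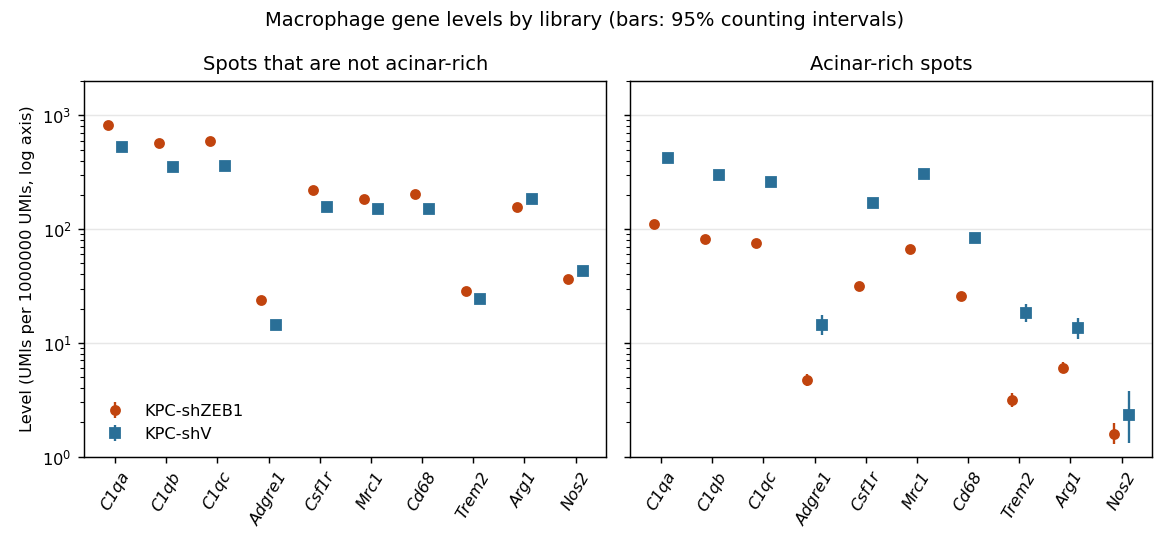
Levels of the 10 macrophage genes in CPM (log axis) in spots that were not acinar-rich (left) and in acinar-rich spots (right), with 1 symbol per library and bars for the 95% counting interval. Outside acinar-rich spots 8 genes stood higher in the KPC-shZEB1-labelled library (circles), from C1qa at 824 against 522 CPM to Trem2 at 28.7 against 24.3 CPM. In acinar-rich spots all 10 stood lower there, Nos2 with overlapping intervals. Probes differ between genes, so levels are compared within a gene only.

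In acinar-rich spots the order of the libraries was the reverse. C1qa was read at 111 CPM (109 to 114) in the KPC-shZEB1-labelled library and 419 CPM (404 to 435) in the KPC-shV-labelled library, putting the log2 ratio at -1.91 (-1.98 to -1.85). Mrc1 was read at 67.2 CPM and 303 CPM, putting the log2 ratio at -2.17 (-2.25 to -2.09). All 10 genes were lower in the KPC-shZEB1-labelled library and 9 were over 2-fold lower. The exception was Nos2, at 88 and 16 UMIs, whose log2 ratio of -0.55 had an interval that included 0 (-1.32 to 0.32). Of all 10674 genes with at least 100 UMIs there, 50.1% were over 2-fold lower and 0.487% over 2-fold higher, and the median log2 ratio was -1.001. The lower levels were thus shared by many genes, while the median of the 10 genes was further down, at -1.84. The acinar-rich spots of the libraries also differed in acinar content. Acinar genes summed to 601505 CPM in those labelled KPC-shZEB1 and 428125 CPM in those labelled KPC-shV, and its part was not tested.
The macrophage genes of these spots were weighted towards Mrc1. Per 1000 UMIs of C1q, Mrc1 had 250.2 UMIs in acinar-rich spots and 91.5 UMIs in the other spots of the KPC-shZEB1-labelled library. The values in the KPC-shV-labelled library were 309 and 122. Arg1 and Nos2 were low in this tissue, at 6.03 and 1.59 CPM in the KPC-shZEB1-labelled library and 13.5 and 2.33 CPM in the KPC-shV-labelled library.

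To follow these genes by hypoxia, each spot was given the summed CPM of 12 genes induced by hypoxia-inducible factors (Car9, Ndrg1, Egln3, Bnip3, Ankrd37, Vegfa, Adm, P4ha1, Slc2a1, Pdk1, Ddit4 and Hilpda), none of which is among the 10 genes. Spots were split into 4 bins of equal size over both libraries together, at 685, 1031 and 2644 CPM. Bins 1 to 4, from least to most hypoxic, held 527, 524, 324 and 81 spots for KPC-shZEB1 and 657, 660, 859 and 1103 spots for KPC-shV. The most hypoxic spots thus came mostly from the KPC-shV-labelled library, and they were shallower than the least hypoxic ones, with medians of 48450 against 57781 UMIs and 40701 against 58315 UMIs, respectively. Bin 4 has no upper limit, and the median hypoxia level in it was 3601 CPM for KPC-shZEB1 and 5607 CPM for KPC-shV.

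C1q and the other macrophage genes of the 10, except Arg1 and Nos2, fell with hypoxia in both libraries. From bin 1 to bin 4, summed C1q read 2529, 2025, 1390.1 and 633 CPM in the KPC-shZEB1-labelled library. It read 2186, 1751, 896 and 405 CPM in the KPC-shV-labelled library. Each step was downwards, and the log2 ratio of bin 4 over bin 1 was -1.999 (-2.06 to -1.94) and -2.43 (-2.46 to -2.41), respectively. The 3 chains fell alike, with log2 ratios of -2.07 to -1.97 in the KPC-shZEB1-labelled library and -2.48 to -2.36 in the KPC-shV-labelled library. Their proportions stayed near constant over the bins, with C1qa at 41.2% to 43.3%, C1qb at 27.6% to 29.1% and C1qc at 28.6% to 30.9% of C1q UMIs.
Mrc1 had the steepest fall in the KPC-shV-labelled library. It read 267, 167, 102 and 56.7 CPM over bins 1 to 4 in the KPC-shZEB1-labelled library, putting the log2 ratio at -2.24 (-2.44 to -2.05). It read 311, 212, 98.3 and 30.0 CPM in the KPC-shV-labelled library, putting the log2 ratio at -3.37 (-3.46 to -3.29). The intervals of these ratios did not overlap between the libraries.
Adgre1 read 33.3, 22.4, 15.8 and 8.20 CPM in the KPC-shZEB1-labelled library and 26.4, 19.9, 10.2 and 4.65 CPM in the KPC-shV-labelled library, log2 ratios of -2.02 and -2.51 with overlapping intervals. Csf1r read 292, 223, 147 and 66.6 CPM and 285, 212, 105 and 67.7 CPM, respectively, log2 ratios of -2.13 and -2.07. The macrophage genes thus fell in both sections, with Cd68 and Trem2 falling least. Cd68 read 233.5, 217, 160.3 and 94.2 CPM in the KPC-shZEB1-labelled library and 214, 193, 115 and 107 CPM in the KPC-shV-labelled library, log2 ratios of -1.31 and -1.005. Trem2 read 32.7, 30.1, 23.7 and 11.7 CPM and 36.8, 33.0, 18.8 and 13.2 CPM, respectively, log2 ratios of -1.49 and -1.48.

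**Figure D2:**
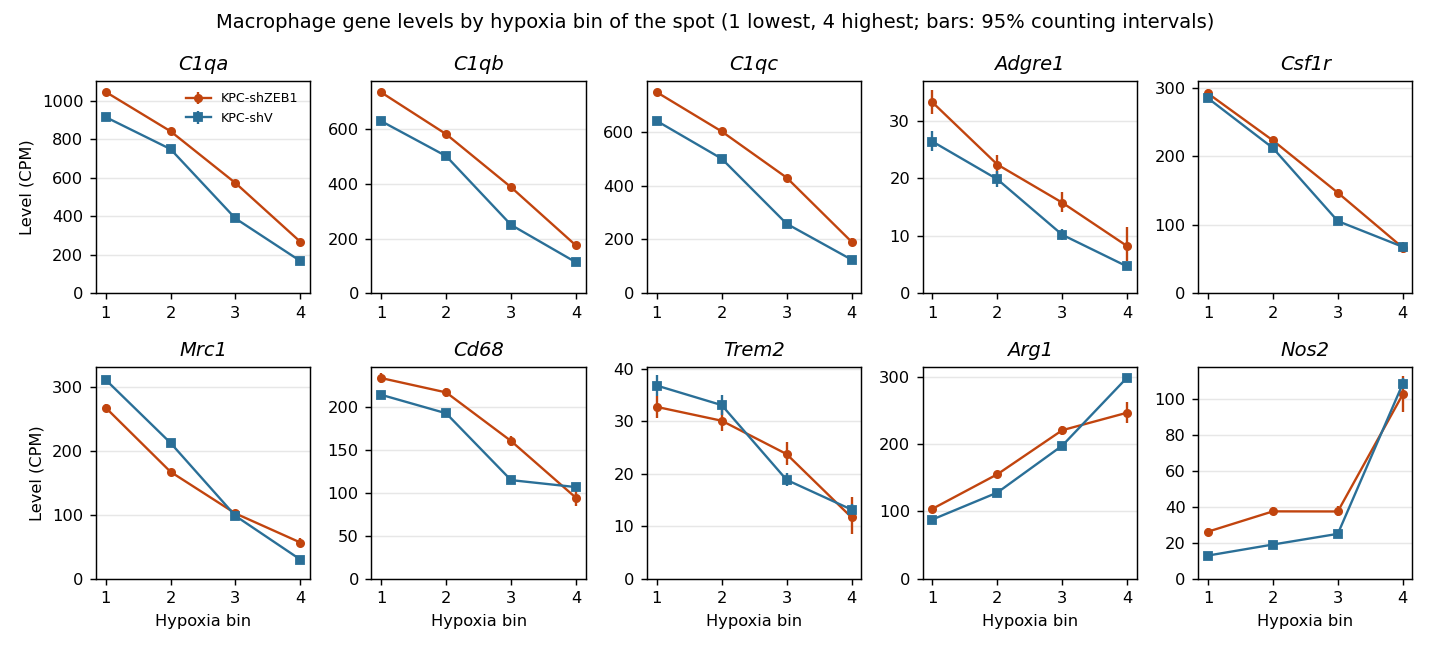
Level of each gene in CPM (linear axis from 0) by hypoxia bin of the spot, from 1 (lowest) to 4 (highest), with 1 line per library and bars for the 95% counting interval. C1qa fell from 1046 to 267 CPM (KPC-shZEB1, circles) and from 915 to 167 CPM (KPC-shV, squares), while Nos2 rose from 26.2 to 102 CPM and from 12.9 to 108 CPM.

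Arg1 and Nos2 ran the other way. Arg1 read 104, 155, 221 and 247 CPM over bins 1 to 4 in the KPC-shZEB1-labelled library, putting the log2 ratio at 1.25 (1.14 to 1.35). It read 88.1, 128, 198 and 299 CPM in the KPC-shV-labelled library, putting the log2 ratio at 1.76 (1.71 to 1.82). Arg1 was thus higher at each step in both sections, whereas Nos2 was higher mainly in the last bin. Nos2 read 26.2, 37.5, 37.4 and 102 CPM in the KPC-shZEB1-labelled library, putting the log2 ratio at 1.97 (1.79 to 2.14). It read 12.9, 19.0, 24.97 and 108 CPM in the KPC-shV-labelled library, putting the log2 ratio at 3.07 (2.93 to 3.21).
Of the 10 genes, 2 were over 2-fold higher and 8 over 2-fold lower in bin 4 than in bin 1 of each library, Cd68 in the KPC-shV-labelled library only just so. Over all genes, 3.89% of 12261 were over 2-fold higher and 13% over 2-fold lower in the KPC-shZEB1-labelled library, and 3.86% of 13869 were over 2-fold higher and 12.9% over 2-fold lower in the KPC-shV-labelled library. The median log2 ratio was -1.97 and -2.22 over the 10 genes, and 0.02 and -0.02 over all genes. The direction of both Arg1 and Nos2 held under all 10 alternatives in each library. The ratio of Nos2 in the KPC-shZEB1-labelled library rested on few spots, since it went, without the 5% of spots highest in Nos2, from 1.97 to 0.53.

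**Figure D3:**
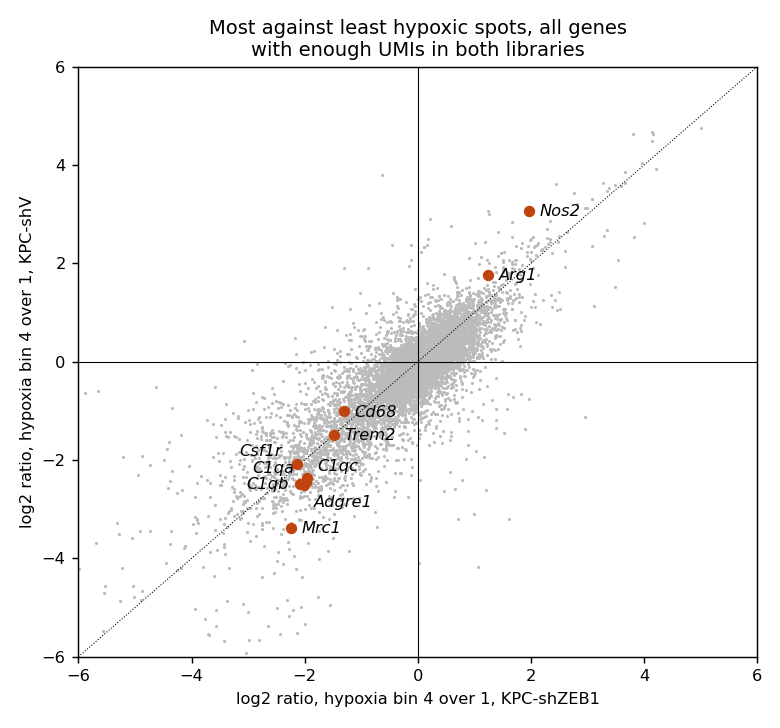
Log2 ratio of the level in hypoxia bin 4 over bin 1 in the KPC-shZEB1-labelled library (horizontal) and in the KPC-shV-labelled library (vertical), with 1 grey point for each of 12182 genes with at least 100 UMIs in both comparisons (9 lie outside the axes) and the 10 macrophage genes in colour. Arg1 and Nos2 lie in the upper right and the other 8 in the lower left, with Mrc1 lowest at -2.24 and -3.37.

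Other cell types moved with hypoxia too, and their part in these differences was not tested. In bin 4 against bin 1, the 6 genes of a fibroblast list all fell, from 6719.7 to 1616 CPM summed in the KPC-shZEB1-labelled library and from 7737 to 1294 CPM in the KPC-shV-labelled library. The 6 genes of a T cell list fell from 246 to 34.1 CPM and from 59.9 to 11.1 CPM, and the 5 genes of a tumor epithelium list rose from 4356 to 8248 CPM and from 4618 to 7808 CPM. Acinar genes outside acinar-rich spots fell from 14020.1 to 2666 CPM and from 7414 to 187 CPM.
Neutrophil genes differed between the sections. The summed list (S100a8, S100a9, Csf3r, G0s2, Cxcr2 and Retnlg) rose from 148 to 748 CPM in the KPC-shV-labelled library, with 5 of 6 genes over 2-fold higher, and stood at 139.6 and 134 CPM in the KPC-shZEB1-labelled library, with 0 of the 5 genes that had at least 100 UMIs past 2-fold. None of the 6 was at 0 in either bin. Over all genes, 3.86% were over 2-fold higher in the KPC-shV-labelled library. In the KPC-shZEB1-labelled library 3.89% were over 2-fold higher and 13% over 2-fold lower.
Arg1 and Nos2 were also higher with hypoxia in spots low in neutrophil genes. Among spots at or under the joint median of the list (153 CPM), Arg1 went from 93.6 CPM in bin 1 (362 spots) to 276 CPM in bin 4 (58 spots) of the KPC-shZEB1-labelled library. It went from 86.6 CPM (414 spots) to 394 CPM (120 spots) in the KPC-shV-labelled library. The neutrophil list was not constant in these spots, going from 69.2 to 59.9 CPM (KPC-shZEB1) and from 69.6 to 93.4 CPM (KPC-shV). In both sections the neutrophil-low spots of bin 4 had more Arg1 than the neutrophil-high ones, which stood at 183 CPM (23 spots) and 280.0 CPM (983 spots). This order did not hold in bin 1, where neutrophil-high spots stood at 128 CPM (KPC-shZEB1) and 91.2 CPM (KPC-shV) of Arg1. The bin 1 intervals overlapped in the KPC-shV-labelled library. Over all spots that were not acinar-rich, Arg1 had a Spearman rho with the neutrophil list of 0.07 and 0.22. Nos2 in the same neutrophil-low spots went from 23.2 to 82.8 CPM and from 13.1 to 79.8 CPM. In the neutrophil-high hypoxic spots it stood at 145 and 114 CPM. For Nos2 the order in bin 4 was thus the opposite of that of Arg1, with more in the neutrophil-high spots of both sections.

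The 10 genes were also read relative to other macrophage genes. The level of each gene was set against 1000 UMIs of the 7-gene macrophage list in the same spots. From bin 1 to bin 4 that list had log2 ratios of -1.83 (KPC-shZEB1) and -2.21 (KPC-shV). Within a library this scale shifts the ratio of every gene by the same amount, so distances between genes are those in CPM. C1q changed little on this scale, from 919 to 818 UMIs between bins 1 and 4 in the KPC-shZEB1-labelled library and from 968 to 831 UMIs in the KPC-shV-labelled library. Mrc1 went from 97.2 to 73.3 UMIs and from 138 to 61.7 UMIs. C1q thus fell about as far as the rest of the macrophage genes, and Mrc1 fell further in the KPC-shV-labelled library.
Cd68 rose on this scale from 84.8 to 122 UMIs (KPC-shZEB1) and from 94.8 to 219 UMIs (KPC-shV), against a fall in CPM. Trem2 went from 11.9 (11.1 to 12.7) to 15.1 (11.1 to 20.1) UMIs in the KPC-shZEB1-labelled library, a difference that this depth could not resolve, and from 16.3 (15.4 to 17.2) to 27.03 (24.8 to 29.4) UMIs in the KPC-shV-labelled library. Csf1r went from 106 to 86.1 UMIs and from 126 to 139 UMIs, so that its direction differed between the libraries.
Arg1 and Nos2 had the largest rises on this scale, which includes the fall of the list. Arg1 went from 37.8 to 319 UMIs per 1000 macrophage UMIs in the KPC-shZEB1-labelled library and from 39.01 to 614 UMIs in the KPC-shV-labelled library. Nos2 went from 9.51 to 132 UMIs and from 5.72 to 222 UMIs. Cd14 is in the list and can be expressed by neutrophils. It stood at 39.99 and 32.6 CPM in bins 1 and 4 of the KPC-shZEB1-labelled library and at 51.2 and 77.3 CPM in the KPC-shV-labelled library.

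**Figure D4:**
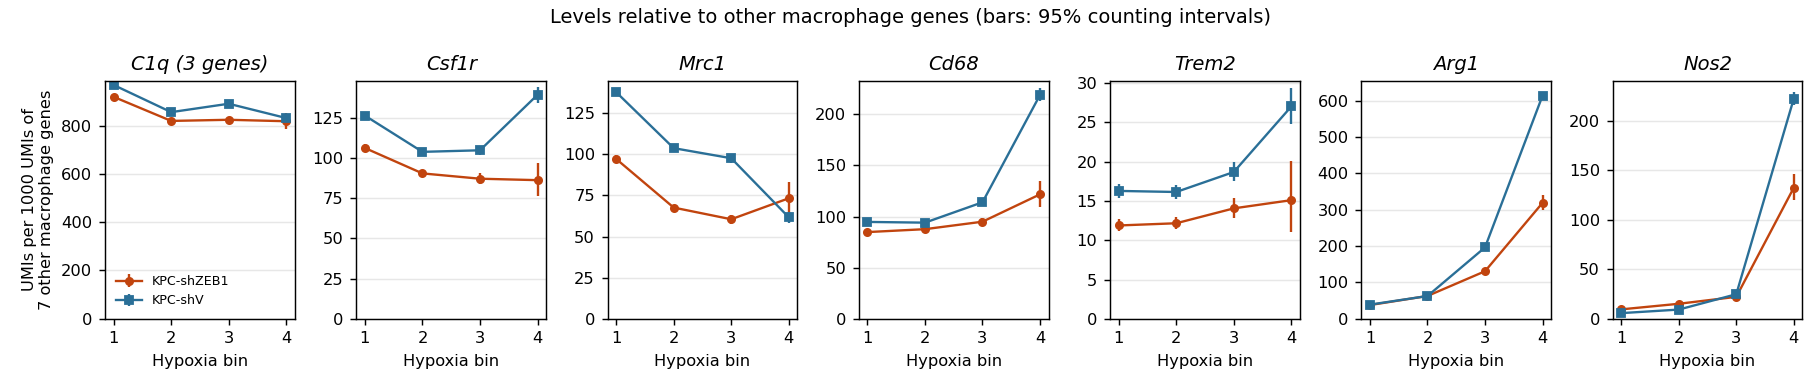
UMIs of summed C1q and of 6 genes per 1000 UMIs of the 7-gene macrophage list (linear axes from 0), by hypoxia bin and library, with bars for the 95% counting interval. C1q stayed between 818 and 968, while Arg1 rose to 319 (KPC-shZEB1, circles) and 614 (KPC-shV, squares) in bin 4.

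Within hypoxia bins, the difference between the libraries changed with the bin. The upper bins did not match the libraries in hypoxia. Its median was 1344 and 1490 CPM in bin 3 and 3601 and 5607 CPM in bin 4 (KPC-shZEB1 and KPC-shV). The part of this mismatch in the ratios was not tested. The log2 ratio of C1q, KPC-shZEB1 over KPC-shV, was 0.21 in bins 1 and 2, 0.63 in bin 3 and 0.64 (0.58 to 0.70) in bin 4. In every bin it was thus below the 0.69 of the pooled spots, though the interval of bin 4 held that value. The mean over the bins was 0.42. The pooled ratio of C1q also went with the numbers of spots per bin, which differed between the libraries. Mrc1 was lower in the KPC-shZEB1-labelled library in bin 1, at a log2 ratio of -0.22 (-0.26 to -0.18), and in bin 2, at -0.35 (-0.40 to -0.29). In bin 4 its ratio was 0.92 (0.71 to 1.12). Csf1r had ratios of 0.035 (-0.007 to 0.077), 0.07, 0.48 and -0.02 (-0.21 to 0.16) in bins 1 to 4. Those of Cd68 were 0.13, 0.17, 0.48 and -0.18 (-0.33 to -0.03). Those of Trem2 were -0.17, -0.14, 0.33 and -0.17 (-0.63 to 0.26). The higher pooled levels of these genes in the KPC-shZEB1-labelled library were thus not seen in every bin.
Nos2 was higher in the KPC-shZEB1-labelled library in bins 1 to 3, although it was lower over all of them. Its log2 ratio was 1.02 (0.85 to 1.19) in bin 1, 0.98 (0.84 to 1.11) in bin 2, 0.58 (0.45 to 0.72) in bin 3 and -0.08 (-0.23 to 0.07) in bin 4, and the mean over the bins was 0.62. Arg1 had ratios of 0.24, 0.28, 0.16 and -0.28 in bins 1 to 4, and the mean over the bins was 0.10. The lower pooled levels of Arg1 and Nos2 in the KPC-shZEB1-labelled library thus went with its smaller number of spots in bin 4, 81 of 1456 against 1103 of 3279.

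In single spots, Arg1 and Nos2 were more concentrated than C1q. The median spot held 1632 CPM of C1q in the KPC-shZEB1-labelled library and 843 CPM in the KPC-shV-labelled library. The 5% of spots with the most C1q held 12.1% and 11.7% of its UMIs. The corresponding shares were 26.1% and 20.8% for Arg1 and 39.6% and 22.9% for Nos2. Nos2 in the KPC-shZEB1-labelled library was thus the most unevenly spread, with up to 898 CPM in a spot around a median of 12.6 CPM.
To compare shares of spots at 1 depth, each spot was thinned to 5000 UMIs, and the 4 and 170 spots with fewer UMIs, among those that were not acinar-rich, were dropped. C1qa was then detected in 1330 of 1452 spots (91.6%, Clopper-Pearson interval 90.1% to 92.97%) for KPC-shZEB1 and 2285 of 3109 spots (73.5%, 71.9% to 75.04%) for KPC-shV, from median depths of 58493 and 57108 UMIs. Arg1 was detected in 41.1% (38.6% to 43.7%) and 49.6% (47.8% to 51.4%), and Nos2 in 11.7% (10.1% to 13.5%) and 18.9% (17.5% to 20.3%). Genes not expected in the tissue were detected in 0.0689% to 0.643% of the same spots. Nos2 was detected in 0.393% and 1.16% of acinar-rich spots, from median depths of 66359.5 and 24545 UMIs, which is no more than the 1.05% and 1.55% for Umod there.
The shares moved with hypoxia as the levels did. From bin 1 to bin 4, Nos2 went from 9.70% to 25.9% of spots labelled KPC-shZEB1 and from 5.08% to 40.7% of spots labelled KPC-shV. Arg1 went from 33.5% to 65.4% and from 35.4% to 61.7%. Mrc1 went from 64.3% to 28.4% and from 68.9% to 13.2%. Without thinning, Nos2 was detected in 52.5% and 58.5% of all spots that were not acinar-rich.

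Across spots the C1q genes ranked together, and Arg1 and Nos2 were only weakly related to them or to each other. The 3 C1q genes had pairwise Spearman rho of 0.89 to 0.91 over 1456 spots labelled KPC-shZEB1 and 0.86 to 0.88 over 3279 spots labelled KPC-shV. Mrc1 had a rho with summed C1q of 0.74 and 0.81. Arg1 had a rho with C1q of 0.12 and 0.08, and Nos2 one of 0.03 and -0.34, respectively. Arg1 and Nos2 had a rho with each other of 0.18 and 0.26. Arg1 had a rho with Cd68 of 0.31 and 0.30 and with Trem2 of 0.29 and 0.19, the former higher than that with Nos2 in both libraries. Arg1 was thus nearly unrelated to C1q in rank, and Nos2 ran against C1q in the KPC-shV-labelled library.
The spots with the highest levels were compared as well. Of the 25% of spots with the most C1q, 68.1% of 364 spots labelled KPC-shZEB1 and 79.6% of 820 spots labelled KPC-shV were also among the 25% with the most Mrc1. Unrelated genes would share 25% of such spots on average. For C1q and Nos2 the shared spots numbered 91 of 364 (25%) and 104 of 820 (12.7%). For Arg1 and Nos2 they numbered 124 of 364 (34.1%) and 330 of 820 (40.2%). The top spots of Arg1 overlapped more with those of Cd68, at 162 of 364 and 369 of 820, and of Trem2, at 159 of 364 and 347 of 820. With C1q they shared 131 of 364 and 267 of 820. The spots highest in Arg1 thus coincided more often with those of Cd68 and Trem2 than with those of Nos2.
C1q had a rho with the hypoxia list of -0.48 and -0.72, with the fibroblast list of 0.65 and 0.81 and with the tumor epithelium list of -0.62 and -0.66. Nos2 had a rho with the tumor epithelium list of 0.27 and 0.38 and with the neutrophil list of 0.28 and 0.34. C1q had a rho with the depth of the spot of -0.07 and -0.10. Nos2 had one of 0.28 and -0.15, Cd68 one of -0.09 and -0.32, Arg1 one of 0.03 and -0.29 and Mrc1 one of -0.28 and -0.15. The part of depth in the relations between genes was not tested.

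**Figure D5:**
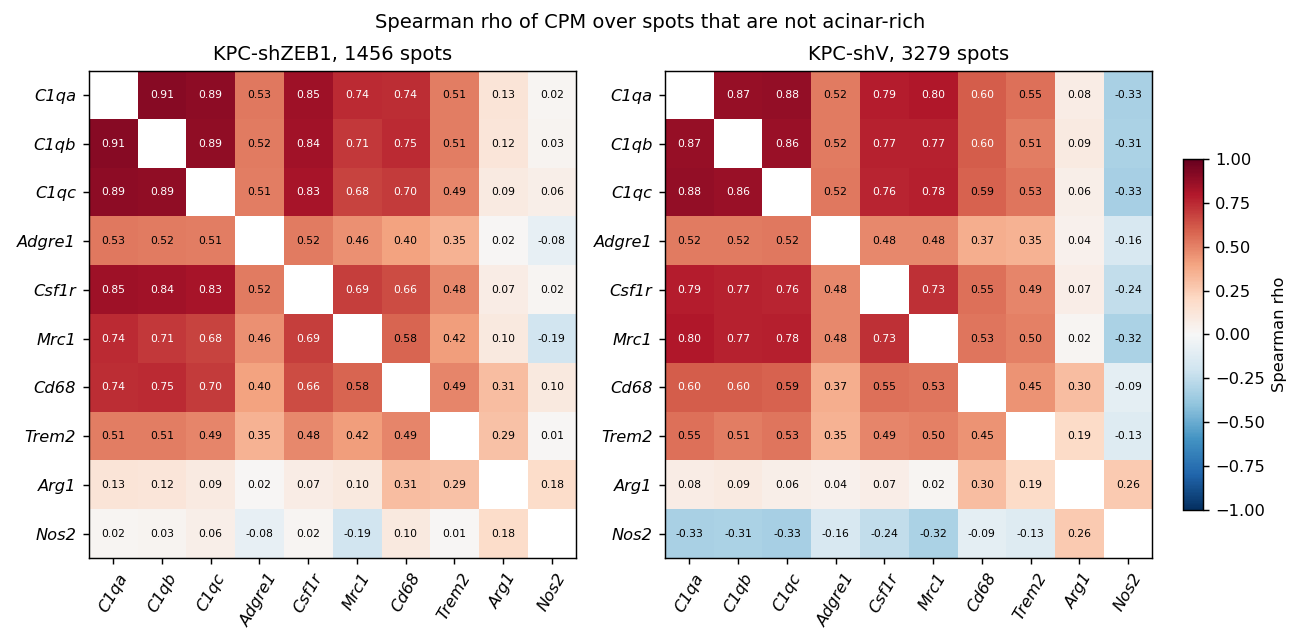
Spearman rho of CPM between each pair of the 10 genes over spots that were not acinar-rich, 1456 in the KPC-shZEB1-labelled library (left) and 3279 in the KPC-shV-labelled library (right), with red above 0 and blue below 0. The C1q genes, Csf1r and Mrc1 form a block at 0.68 to 0.91, and Nos2 has rho of -0.33 to -0.31 with the C1q genes in the KPC-shV-labelled library only, against 0.02 to 0.06 in the other.

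The genes with the spot pattern most like these were ranked among 4201 genes at 50 CPM or more, by the lower rho of the libraries. For C1q they were Apoe, a lipid carrier (0.87), Ctss, a lysosomal protease (0.82), Ly86 (0.81), Csf1r (0.80) and Aif1 (0.79). For Mrc1 they were C1qa (0.74), Dab2, an endocytic adaptor (0.73), Ccl8, a chemokine (0.72), Fcgr2b, the inhibitory Fc receptor (0.71), and C1qb (0.71). The nearest genes were thus other myeloid genes. For Arg1 the values were lower, with Ccl6, a myeloid chemokine, at 0.46, Gpi1, a glycolytic enzyme, at 0.39, Hmox1, heme oxygenase, at 0.38, Cdkn1a at 0.36 and Actb at 0.35. For Nos2 they were AA467197 (0.45), Lgals3, galectin-3 (0.45), B2m, the light chain of MHC class I (0.44), Upp1 (0.40) and Nampt (0.38).

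Macrophage-rich spots, the upper 25% of spots by the 7-gene list over both libraries, made up 468 spots (32.1%) for KPC-shZEB1 and 716 spots (21.8%) for KPC-shV. C1q stood at nearly the same level in them, 3424 CPM (3401 to 3446) and 3525 CPM (3502 to 3549), as did Cd68 at 356 and 360.4 CPM. The state genes differed more. Mrc1 stood at 321 CPM (314 to 328) in the KPC-shZEB1-labelled library and 568 CPM (559 to 578) in the KPC-shV-labelled library. Trem2 stood at 49.9 CPM (47.3 to 52.7) and 74.4 CPM (71.1 to 77.8). Nos2 stood at 52.2 CPM (49.4 to 54.99) and 30.5 CPM (28.4 to 32.7). Arg1 stood at 252 CPM (246 to 258) and 302 CPM (295 to 309), and Csf1r at 397 and 456 CPM. With the same macrophage gene cut, Mrc1, Trem2, Csf1r and Arg1 were therefore lower and Nos2 higher in the KPC-shZEB1-labelled library. The median hypoxia level of these spots was 672 and 746 CPM.

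Other complement genes were also higher in the KPC-shZEB1-labelled library outside acinar-rich spots, and fell with hypoxia. Of 15 genes that act with or after C1q, 13 had a log2 ratio above 0 between the libraries and 5 were over 2-fold higher, against 3.87% of all genes, with a median of 0.65. The fibroblast list moved likewise, with 3 of 6 genes over 2-fold higher and a median of 0.73, and its part was not tested. Over all spots, 9 of the 15 complement genes were above 0 and 6 below, 0 were over 2-fold higher (2.08% of all genes were, and 8.20% were over 2-fold lower), and the median was 0.10. In acinar-rich spots 0 of the 13 genes with at least 100 UMIs were above 0. There 12 were over 2-fold lower, as were 50.1% of all genes. C3, the central component cleaved by every pathway, stood at 1171 and 354 CPM, putting the log2 ratio at 1.73 (1.71 to 1.74). C1ra, a protease partner of C1q, stood at 99.1 and 38.2 CPM, putting the log2 ratio at 1.38. C4b, which the C1 complex cleaves, stood at 154 and 70.6 CPM, putting the log2 ratio at 1.12. The ratios of these 3 genes were larger than that of C1q, 0.69. In bin 4 against bin 1, 14 of the 14 genes with at least 100 UMIs were below 0 in each library. Of them, 11 and 10 were over 2-fold lower, against 13% and 12.9% of all genes. C3 fell from 1925 to 211 CPM in the KPC-shZEB1-labelled library and from 754 to 109.7 CPM in the KPC-shV-labelled library.

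The genes around Arg1 and Nos2 in arginine use were split. Of 9 genes, 0 passed 2-fold between the libraries, where 3.87% of all genes were over 2-fold higher and 1.72% lower. The summed list had a log2 ratio of 0.01 (-0.01 to 0.03). With hypoxia, the sum had log2 ratios of -0.12 and -0.07. Of the 8 genes with at least 100 UMIs, 1 was over 2-fold lower in the KPC-shZEB1-labelled library. In the KPC-shV-labelled library 1 was over 2-fold higher and 2 over 2-fold lower. Of these 8 genes, 4 and 5 were above 0. Over all genes, 3.89% and 3.86% were over 2-fold higher with hypoxia and 13% and 12.9% over 2-fold lower. Counts of 1 or 2 among 8 genes are too few to set against those shares. Slc7a1, an arginine transporter, went from 72.2 to 91.2 CPM in the KPC-shZEB1-labelled library and from 88.9 to 128 CPM in the KPC-shV-labelled library. Ass1, an enzyme of the route from citrulline back to arginine, went from 16.7 to 25.4 CPM and from 12.5 to 23.8 CPM. Oat, which uses ornithine, went from 129 to 83.8 CPM and from 119 to 54.1 CPM. Arg2, the mitochondrial arginase, passed 2-fold in the KPC-shV-labelled library alone, from 3.81 to 9.21 CPM.

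Among the ligands of macrophage growth, Csf1 stood at 8.22 CPM in the KPC-shZEB1-labelled library and 9.51 CPM in the KPC-shV-labelled library, and Il34, the other ligand of the receptor encoded by Csf1r, at 35.0 and 42.7 CPM. Neither followed the higher pooled level of Csf1r there, with log2 ratios of -0.21 (-0.34 to -0.08) and -0.29 (-0.35 to -0.22). Csf2 and Csf3, which act on granulocytes and monocytes, were over 2-fold lower, at 22.6 and 59.2 CPM and at 4.28 and 22.8 CPM. These were the 2 of 7 genes of the list past 2-fold. Of all genes, 1.72% were over 2-fold lower and 3.87% over 2-fold higher.

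Lists of macrophage states moved in different directions with hypoxia. Of the 10 genes of alternative activation, 9 had at least 100 UMIs and all 9 were below 0 in both libraries. Of them, 5 and 6 were over 2-fold lower, against 13% and 12.9% of all genes. Examples were Retnla, at 34.4 and 0.746 CPM and at 28.2 and 1.19 CPM, and Mgl2, a lectin, at 209.8 and 62.1 CPM and at 172 and 27.7 CPM. The sum of the list had log2 ratios of -1.18 and -1.22, a smaller fall than the -1.83 and -2.21 of the 7-gene macrophage list. Of the 11 resident-type genes, 8 in the KPC-shZEB1-labelled library and 9 in the KPC-shV-labelled library had at least 100 UMIs and all were below 0. Of them, 6 and 8 were over 2-fold lower, against 13% and 12.9% of all genes. An example was Stab1, a scavenger receptor, at 119.5 and 23.6 CPM and at 164 and 27.0 CPM. The sum of the resident-type list had log2 ratios of -1.47 and -2.07.
Of the 10 lipid-associated genes, 7 in the KPC-shZEB1-labelled library and 6 in the KPC-shV-labelled library were below 0 with hypoxia. Of them, 4 and 3 were over 2-fold lower, against 13% and 12.9% of all genes, and the sum had log2 ratios of -0.60 and -0.53. Apoe fell, with -1.74 and -2.59. Lgals3 and Plin2, a lipid droplet gene, were higher in bin 4 than in bin 1 of both libraries, Lgals3 with log2 ratios of 0.64 and 1.02 and Plin2 with 0.48 and 0.81. Tumor cells can express Lgals3 and Plin2 as well.
The 11 inflammatory genes split. In the KPC-shV-labelled library, 6 were over 2-fold higher and 2 over 2-fold lower in bin 4, against 3.86% and 12.9% of all genes. In the KPC-shZEB1-labelled library 3 were higher and 3 lower, against 3.89% and 13% of all genes. Ptgs2, the inducible cyclooxygenase, went from 16.5 to 47.0 CPM (KPC-shZEB1) and from 48.6 to 184 CPM (KPC-shV). Il1a, a cytokine, went from 11.7 to 24.6 CPM and from 20.5 to 81.0 CPM. Il1b, which neutrophils also express, went from 66.2 to 64.4 CPM and from 69.3 to 142 CPM. Cd86, a costimulatory receptor, fell from 37.2 to 7.71 CPM and from 23.9 to 6.15 CPM. Acod1, which makes itaconate, went from 39.4 to 28.6 CPM in the KPC-shZEB1-labelled library and from 10.2 to 52.4 CPM in the KPC-shV-labelled library. The 7 monocyte genes were split too. Of the 6 with at least 100 UMIs, 2 in the KPC-shZEB1-labelled library and 3 in the KPC-shV-labelled library were above 0. Of these 6, 0 were over 2-fold higher in either library, against 3.89% and 3.86% of all genes. Over 2-fold lower were 3 and 2, against 13% and 12.9%. The sum of the monocyte list rose from 3848 to 5116 CPM and from 3805 to 4971 CPM. Plac8, which other cells express as well, went from 1992 to 2785 CPM and from 1393 to 2229 CPM. By contrast, Ccr2, the chemokine receptor of recruited monocytes, fell from 124 to 10.2 CPM and from 99.8 to 4.84 CPM.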

How the data were processed

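One library per group was made from tumor sections by probe-based Visium CytAssist. The authors used Space Ranger 2.0.1 with mm10 and deposited the UMI counts of every gene in each spot over tissue, with no scaling applied. Tissue pictures were not analysed. Unused columns of per-sample values numbered 0.

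From the deposited counts, CPM with exact Poisson intervals, log2 ratios with exact conditional binomial intervals and shares with Clopper-Pearson intervals were computed at the 95% level (Python 3.11.15, numpy 2.4.6, scipy 1.17.1, pandas 2.3.3, matplotlib 3.10.9, seed 1). Depth was 140493626 UMIs (KPC-shZEB1) and 172059528 UMIs (KPC-shV), and intervals cover counting error alone. Counts past 2-fold are over genes with at least 100 UMIs in a comparison. Spots hold several cells, so doublets were not called. Positions are from GENCODE M21.

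The genes named are the 10 genes, examples from marker lists and the 5 most alike genes per item. The genes, lists and alternatives were chosen with earlier results of these data known. Of the listed genes, Ldha, Eno1, Tpi1, Folr2, Cxcl2, Ly6c2, C1s1, Srm, Krt18, Aldoa (2 features of that symbol) and 6 acinar genes were not used, and 3 others are not reported here and entered no sum. On simulated counts for KPC-shZEB1 over KPC-shV with 19465 genes, 199 of 200 changed genes had the right direction (median absolute error 0.0646), and the true value lay in 95.4% of 12532 intervals.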

Additional observations from a re-analysis of the deposited data

Results flagged for a closer look

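The results given here had opposite directions in the sets of spots compared, with counting intervals on opposite sides of 0. With 1 library per group, these differences were not tested.

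The log2 ratio between the libraries (KPC-shZEB1 over KPC-shV) was lower in acinar-rich spots than in the other spots by a difference of -2.56 for summed C1q (-2.57 for C1qa, -2.57 for C1qb and -2.54 for C1qc), -2.35 for Adgre1, -2.91 for Csf1r, -2.44 for Mrc1, -2.12 for Cd68 and -2.79 for Trem2. Between hypoxia bins 4 and 1, the same ratio differed by 1.13 for Mrc1, -0.30 for Cd68 and -0.52 for Arg1.

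Among other myeloid genes, the log2 ratio of bin 4 over bin 1 differed in direction for Acod1 (KPC-shZEB1 minus KPC-shV -2.83), Gpnmb (-1.81), Itgam (-1.16) and Cd14 (-0.89). Gpnmb, a gene of lipid-loaded macrophages, went from 76.7 to 31.8 CPM in the KPC-shZEB1-labelled library and from 28.4 to 41.4 CPM in the KPC-shV-labelled library. Itgam, an integrin that neutrophils also carry, went from 51.2 to 28.1 CPM and from 39.1 to 47.8 CPM.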

How the results depend on the processing

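Of 99 values of library ratios under alternatives, 81 kept their direction and 18 did not, and of 220 values of hypoxia ratios 215 kept it. All values are log2 ratios, and the causes of the changes were not tested. Bin 4 of the KPC-shZEB1-labelled library held 81 spots, which limits its values. No paired analysis was possible because each group has 1 library.

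For the library ratio, counting per UMI of the other macrophage list gave -0.097 for C1qa, -0.0498 for C1qb, -0.026 for C1qc, -0.063 for C1q, -0.0097 for Adgre1, -0.26 for Csf1r, -0.48 for Mrc1, -0.32 for Cd68, -0.52 for Trem2, -0.997 for Arg1 and -0.98 for Nos2. Counting all spots gave 0.10 for C1q, -0.10 for Csf1r, -0.20 for Mrc1, -0.15 for Cd68, -0.37 for Trem2, -0.87 for Arg1 and -0.85 for Nos2. Weighting spots equally (mean CPM per spot) gave 0.49 for C1q, -0.14 for Mrc1, -0.24 for Trem2, -0.68 for Arg1 and -0.82 for Nos2. The mean over the 4 hypoxia bins, chosen after seeing the data, gave 0.42 for C1q, 0.10 for Arg1, -0.036 for Trem2 and 0.62 for Nos2. C1q gave 0.68 without spots over 5% acinar UMIs, 0.67 with a limit of 40%, and 0.71 with median-of-ratios scaling. C1q and Arg1 gave 0.71 and -0.31 without the 5% of spots highest in the gene, and 0.73 and -0.17 without spots under 20000 UMIs.

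For the ratio of hypoxia bin 4 over bin 1, values per UMI of the other macrophage list were 0.14 for Csf1r (KPC-shV), 0.52 and 1.21 for Cd68, 0.35 and 0.73 for Trem2, 3.08 and 3.98 for Arg1 and -0.17 and -0.22 for C1q (KPC-shZEB1 and KPC-shV). Bins cut at the joint median gave 0.79 and 1.16 for Arg1 and -0.85 and -1.55 for C1q. Leaving out the 5% of spots highest in the gene gave 0.92 and 1.45 for Arg1 and -1.87 and -2.25 for C1q. Leaving out neutrophil-rich spots gave 1.35 and 1.90 for Arg1 and, in KPC-shV, -2.19 for C1q. Weighting spots equally (mean CPM per spot) gave 1.36 and 1.65 for Arg1 and, in KPC-shV, -2.66 for C1q. The short hypoxia list gave 1.02 for Arg1 in KPC-shZEB1 and -1.75 and -2.29 for C1q. The glycolysis list gave 1.16 for Arg1 and -2.66 for C1q, both in KPC-shV. Weighting the hypoxia genes equally gave 1.64 for Arg1 in KPC-shV and -1.89 and -2.39 for C1q. Bins cut within each library gave -1.13 and -2.56 for C1q, and leaving out spots under 20000 UMIs gave -2.39 in KPC-shV.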
